A study of Rattus norvegicus with 6 samples.

Results

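This is an account of 46 cell cycle and proliferation genes in the renal cortex of rats given carbon tetrachloride, a solvent that the liver and kidney turn into a reactive radical. They were listed by their known roles, as cyclins, replication genes and mitosis genes, and not by their measured values. Earlier results of these data were known when they were chosen. A gene was represented by the probe whose accession matched its symbol and whose mean log2 signal over the 6 arrays was highest. Of the 46 genes, 41 had a matched probe, and 39 were tested among 31190 transcripts. No probe was matched to Mcm5, Uhrf1, Bub1b, Top2a and Cenpe. Aurkb was well above background on 1 of 3 carbon tetrachloride arrays and 1 of 3 corn oil arrays, and Hmmr on 1 of 3 carbon tetrachloride arrays and 2 of 3 corn oil arrays, so these were not tested and have no fold change. All 39 tested genes were well above background on all 6 arrays.

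The study compared 3 male Sprague-Dawley (Crl:CD(SD)) rats given carbon tetrachloride at 100 mg/kg/day for 4 weeks with 3 given its vehicle, corn oil, for 4 weeks. The animals were 5 weeks old when bought. Each array measured the total RNA of 1 rat's renal cortex, labelled with Cy3 on a 1-colour Agilent array. The series title, sample labels and treatment protocol name carbon tetrachloride, while the design text names benzyl acetate, and the labels were followed here. Both groups are whole cortex, so fewer cells of a type and less RNA per cell cannot be told apart.

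Between 68.5% and 72.1% of probes were well above background on an array, and array pairs correlated at 0.991 to 0.994 over all tested transcripts, within and between groups alike. All 6 proximal tubule markers, which define the labelled tissue, were well above background. Carbon tetrachloride replicate 3 lay alone on a second slide, and the other 5 arrays shared a slide. On the shared slide the corn oil arrays lay in row 1 and the carbon tetrachloride arrays in row 2. Group and row cannot be told apart there. With 3 arrays per group, their number limits the precision of every value below. Values are log2 signal relative to the 75th percentile of the array, so that 0 is the level of a bright probe, and levels of different genes are not set against each other. Fold changes are carbon tetrachloride minus corn oil.

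A dividing cell passes through G1, in which D-type and E-type cyclins and E2F factors commit it to division, S phase, in which the MCM helicase and the replication enzymes copy DNA, and G2 and M, in which CDK1 with its cyclins and the spindle proteins separate the chromosomes. Most genes of the last step are transcribed only in cycling cells, and their mRNA in a tissue is widely read as a measure of how many cells divide. The adult kidney cortex divides slowly, and its tubule cells re-enter the cycle after injury.

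No single cell cycle gene passed the test between the groups. With limma, 0 of 39 passed an adjusted p of 0.05, and the smallest adjusted p was 0.689, against 1 of all 31190 transcripts (0.00321%). At an unadjusted p under 0.05, 1 gene was higher after carbon tetrachloride (3.67% of all transcripts were) and 0 were lower (2.63% of all transcripts). The groups did not overlap in 1 gene that was higher (7.54% of all transcripts) and in 2 that were lower (5.27% of all transcripts). A fold change above 0 was found for 12 of 39 genes, against 52.3% of all transcripts, and the other 27 were below 0. The median log2 fold change was -0.05, and 0.01 over all transcripts. Of the 39 genes, 35 had a log2 fold change smaller than 0.25 in size and 1 exceeded 0.5. The 95% interval lay within a 2-fold change either way for 33 genes, for 18 of them within 1.5-fold, and it reached 2-fold for the other 6.

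The median of the 39 turned above 0 without either of 2 rats, to 0.064 without carbon tetrachloride replicate 2 and to 0.073 without corn oil replicate 2. Among the 5 arrays of the shared slide, where group and row coincide, it was -0.16.

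**Figure D1:**
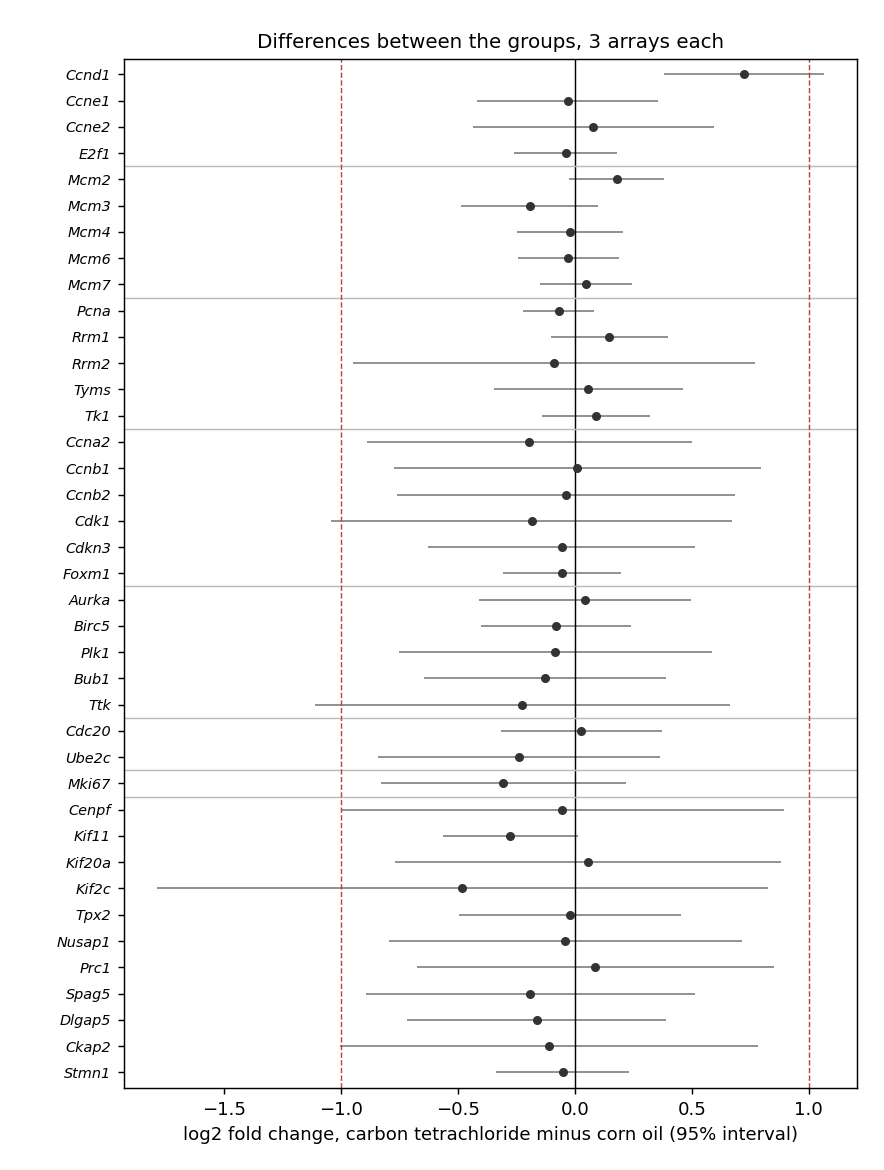
Log2 fold change of each of the 39 tested genes, carbon tetrachloride minus corn oil, with the 95% interval from limma (3 arrays per group); grey lines part the role groups and dashed lines mark a 2-fold change. Ccnd1 stands at 0.72, and the interval of every other gene includes 0.

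Among the 4 genes of G1, Ccnd1, which encodes cyclin D1, the partner of CDK4 and CDK6 that growth signals induce, gave the largest value of all 39. It had 3.62, 3.49 and 3.44 in carbon tetrachloride rats, against 2.90, 2.51 and 2.98 in corn oil rats. Every carbon tetrachloride rat lay above every corn oil rat, and the lowest corn oil value was replicate 2. The log2 fold change was 0.72 ± 0.14 (SE, n = 3 per group), a 1.65-fold difference with a 95% interval from 1.30 to 2.09. By limma the unadjusted p was 0.00213 and the adjusted p 0.689, so it did not pass over all transcripts.

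The 3 probes of Ccnd1 ran the same way, with log2 fold changes of 0.72, 0.61 and 0.67. Under the 18 other settings the value lay between 0.58 and 0.82, and the smallest adjusted p among them was 0.488. Without corn oil replicate 2, the lowest control, it was 0.58. Among the 5 arrays of the shared slide, where group and row coincide, it was 0.76 ± 0.17.

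The other 3 G1 genes had values close to 0. E2f1, a transcription factor that switches on replication genes, had -1.06, -1.14 and -1.32 in carbon tetrachloride rats, against -1.13, -1.08 and -1.19 in corn oil rats. Ccne1, cyclin E1, which activates CDK2 at the start of S phase, had -3.55, -3.47 and -3.85 in carbon tetrachloride rats, against -3.51, -3.40 and -3.85 in corn oil rats. The groups overlapped in both, with log2 fold changes of -0.04 ± 0.09 and -0.03 ± 0.16 (SE, n = 3 per group). Ccne2, the second E cyclin, had 0.08 ± 0.21.

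**Figure D2:**
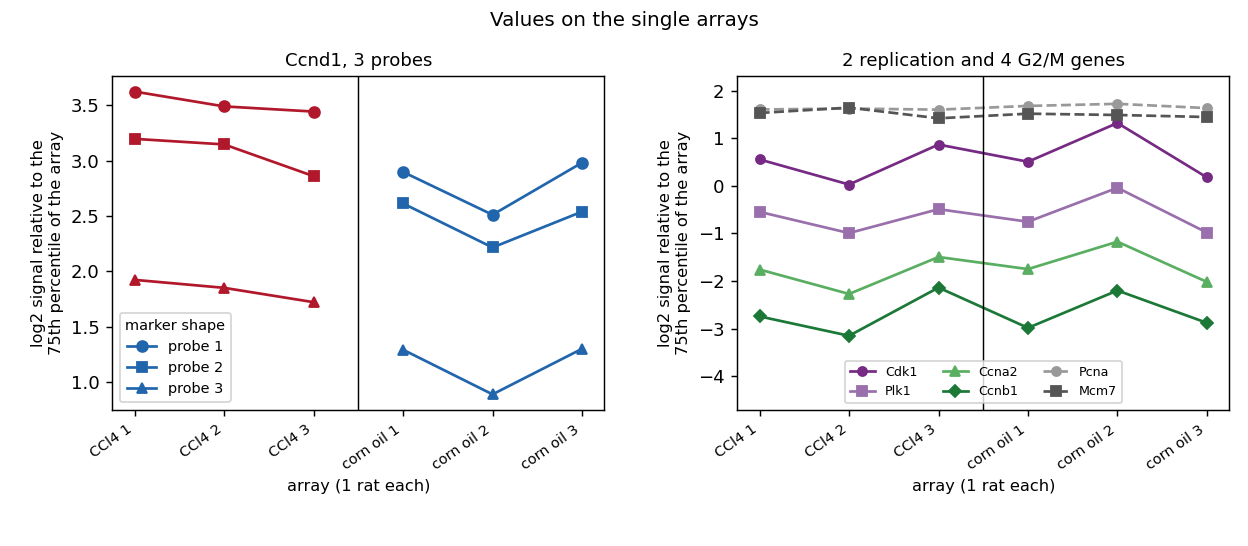
Log2 signal relative to the 75th percentile on each array (1 rat each), carbon tetrachloride (CCl4) left of corn oil; lines only join values of a probe or gene. Left, the 3 Ccnd1 probes, each above its corn oil values on every CCl4 array; right, Pcna and Mcm7 stay level while Cdk1, Plk1, Ccna2 and Ccnb1 dip on CCl4 replicate 2 and rise on corn oil replicate 2.

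The MCM proteins form the ring-shaped helicase that unwinds DNA at replication origins. Mcm7 had 1.53, 1.64 and 1.42 in carbon tetrachloride rats, against 1.52, 1.49 and 1.45 in corn oil rats. Mcm3 had -0.56, -0.87 and -0.65 in carbon tetrachloride rats, against -0.40, -0.43 and -0.67 in corn oil rats. Mcm4 had -0.61, -0.88 and -0.65 in carbon tetrachloride rats, against -0.65, -0.70 and -0.73 in corn oil rats. The groups overlapped in all 5 tested MCM genes. Their log2 fold changes were 0.05 ± 0.08 for Mcm7, -0.19 ± 0.12 for Mcm3, -0.02 ± 0.09 for Mcm4, 0.18 ± 0.08 for Mcm2 and -0.03 ± 0.09 for Mcm6 (SE, n = 3 per group). The probes of Mcm4 disagreed, with log2 fold changes between -0.09 and 0.57. Of 24 genes with several tested probes, 17 had all probes on the same side of 0 and 7 did not, the others being E2f1 (-0.30 to 0.0007), Rrm1 (-0.04 to 0.16), Tk1 (-0.20 to 0.09), Foxm1 (-0.06 to 0.19), Cenpf (-0.33 to 0.16) and Prc1 (-0.16 to 0.09).

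Pcna encodes the sliding clamp that holds DNA polymerase on its template. It had 1.61, 1.63 and 1.60 in carbon tetrachloride rats, against 1.68, 1.72 and 1.63 in corn oil rats. The groups did not overlap, but the difference was small, at -0.07 ± 0.06 (SE, n = 3 per group, limma adjusted p = 0.856). Both probes had this direction, but in the second probe the groups overlapped. Rrm2, the regulated subunit of ribonucleotide reductase, which makes deoxynucleotides, had 0.89, 0.34 and 1.25 in carbon tetrachloride rats, against 1.16, 1.32 and 0.27 in corn oil rats. It spread over 1.05 log2 units among the 6 rats, and the log2 fold change between the groups was -0.09 ± 0.35. Tk1, thymidine kinase of the salvage route, had 0.70, 0.57 and 0.79 in carbon tetrachloride rats, against 0.60, 0.71 and 0.48 in corn oil rats. Its log2 fold change was 0.09 ± 0.09, and those of Rrm1, the large reductase subunit, and Tyms, thymidylate synthase, were 0.15 ± 0.10 and 0.06 ± 0.16.

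Cdk1, the kinase that drives entry into mitosis, had 0.56, 0.03 and 0.87 in carbon tetrachloride rats, against 0.51, 1.32 and 0.18 in corn oil rats. Ccna2, cyclin A2 of S and G2, had -1.76, -2.27 and -1.49 in carbon tetrachloride rats, against -1.75, -1.17 and -2.02 in corn oil rats. Ccnb1, cyclin B1 and a partner of CDK1, had -2.74, -3.15 and -2.14 in carbon tetrachloride rats, against -2.98, -2.20 and -2.88 in corn oil rats. In all 3, carbon tetrachloride replicate 2 was the lowest of the 6 rats, and corn oil replicate 2 was the highest or, for Ccnb1, second to carbon tetrachloride replicate 3. Foxm1, a transcription factor of G2 and M genes, was flatter, with -1.32, -1.61 and -1.62 in carbon tetrachloride rats, against -1.48, -1.40 and -1.50 in corn oil rats. The log2 fold changes were -0.18 ± 0.35 for Cdk1, -0.19 ± 0.28 for Ccna2, 0.01 ± 0.32 for Ccnb1, -0.06 ± 0.10 for Foxm1, -0.04 ± 0.29 for Ccnb2, the second B cyclin, and -0.06 ± 0.23 for Cdkn3, a phosphatase that acts on CDKs (SE, n = 3 per group).

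The kinases Plk1 and Aurka promote entry into mitosis and assembly of the spindle, and the checkpoint kinases Bub1 and Ttk delay chromosome separation until every chromosome is attached. Plk1, polo-like kinase 1, had -0.55, -0.99 and -0.49 in carbon tetrachloride rats, against -0.75, -0.04 and -0.98 in corn oil rats. Birc5, survivin, which guides Aurora B to centromeres, had -0.82, -1.04 and -0.70 in carbon tetrachloride rats, against -0.92, -0.57 and -0.82 in corn oil rats. Aurka, Aurora kinase A of the spindle poles, had -0.63, -1.06 and -0.71 in carbon tetrachloride rats, against -1.07, -0.52 and -0.94 in corn oil rats. The groups overlapped in all 5 tested genes of this kind, and corn oil replicate 2 was again the highest in these 3. Log2 fold changes were -0.08 ± 0.27 for Plk1, -0.08 ± 0.13 for Birc5, 0.04 ± 0.18 for Aurka, -0.13 ± 0.21 for the checkpoint kinase Bub1 and -0.22 ± 0.36 for the checkpoint kinase Ttk.

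Cdc20 and Ube2c belong to the anaphase-promoting complex system, which marks cyclin B for destruction. Cdc20, its activator, had -0.17, -0.48 and -0.20 in carbon tetrachloride rats, against -0.48, -0.08 and -0.38 in corn oil rats. Ube2c, its ubiquitin-conjugating enzyme, had -2.22, -2.48 and -2.08 in carbon tetrachloride rats, against -2.06, -1.54 and -2.47 in corn oil rats. The groups overlapped in both, with log2 fold changes of 0.03 ± 0.14 and -0.24 ± 0.25 (SE, n = 3 per group).

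Mki67 encodes Ki-67, the nuclear protein used in histology to count cycling cells. It had -0.14, -0.52 and -0.12 in carbon tetrachloride rats, against 0.32, 0.19 and -0.38 in corn oil rats. The groups overlapped, and the log2 fold change was -0.31 ± 0.21 (limma adjusted p = 0.835). All 5 probes of Mki67 were below 0, between -0.32 and -0.12.

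The largest group, kinetochore, motor and spindle genes, held 11 tested genes, 9 of them below 0. Kif11, the motor that pushes spindle poles apart, had 1.95, 1.94 and 2.04 in carbon tetrachloride rats, against 2.10, 2.49 and 2.16 in corn oil rats. Every carbon tetrachloride rat lay below every corn oil rat, with a log2 fold change of -0.28 ± 0.12 and a limma adjusted p of 0.794. The second tested probe of Kif11 gave -0.18, and in that probe the groups overlapped. Stmn1, stathmin, which destabilises microtubules, had 3.64, 3.52 and 3.90 in carbon tetrachloride rats, against 3.70, 3.84 and 3.67 in corn oil rats. Kif20a, a motor of cell division's final step, had -1.14, -1.86 and -0.99 in carbon tetrachloride rats, against -1.61, -0.79 and -1.76 in corn oil rats. The groups overlapped in Stmn1 and Kif20a, at -0.05 ± 0.12 and 0.06 ± 0.34.

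The other 8 of this group had log2 fold changes of -0.48 ± 0.53 for the microtubule depolymerase Kif2c, -0.05 ± 0.39 for the kinetochore protein Cenpf, -0.02 ± 0.19 for the spindle factor Tpx2 and -0.04 ± 0.31 for the spindle protein Nusap1. Prc1, which bundles midzone microtubules, had 0.09 ± 0.31, Spag5, a spindle protein, -0.19 ± 0.29, Dlgap5, a kinetochore fibre protein, -0.16 ± 0.23, and Ckap2, a cytoskeletal protein of the spindle, -0.11 ± 0.36 (SE, n = 3 per group). Kif2c spread over 2.18 log2 units among the 6 rats, the most of the 39, with corn oil replicates 1 and 3 at its ends.

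Most genes of G2 and M were high or low together in single rats of both groups. Here the G2 and M genes are the 5 role groups from the cyclins on, among them Ccna2, which also acts in S phase, while the other S phase genes are counted with G1. The role groups were merged for this description after the values were seen, as were the 2 rats it singles out, and it has no test. Of the 25 tested G2 and M genes, corn oil replicate 2 was the highest rat in 18 (72.0%), against 12.4% of all transcripts. Carbon tetrachloride replicate 2 was the lowest in 20 (80.0%), against 16.6% of all transcripts. Both held in 15 (60.0%), against 2.85%. Of the 14 tested G1 and replication genes, corn oil replicate 2 was the highest rat in 3 (21.4%). Carbon tetrachloride replicate 2 was the lowest in 4 (28.6%), and both held in 0.

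The rats highest and lowest in these genes within each group were compared next. They were picked from the same values, so their order restates the pattern above and is no further support for it. Corn oil replicate 2 exceeded corn oil replicate 3 in 24 of 25 (49.6% of all transcripts), by a median of 0.83 log2 units. Carbon tetrachloride replicate 3 exceeded replicate 2 in 24 of 25 (48.6% of all transcripts), by a median of 0.50. In the G1 and replication genes these orders held in 11 of 14 and 8 of 14, with median differences of 0.08 and 0.19. The median distance from lowest to highest rat was 0.95 log2 units for the G2 and M genes, 0.37 for the G1 and replication genes and 0.39 for all transcripts. The median SD of the G2 and M genes was 0.28 in carbon tetrachloride rats and 0.43 in corn oil rats. Probes of a gene did not always give the same order. Of 14 G2 and M genes with several tested probes, 5 (Ccna2, Ckap2, Bub1, Ttk and Spag5) had every probe highest on corn oil replicate 2 and lowest on carbon tetrachloride replicate 2, and 2 (Foxm1 and Kif2c) had no probe with either. Of their 35 probes, 28 were highest on corn oil replicate 2 and 23 lowest on carbon tetrachloride replicate 2.

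**Figure D3:**
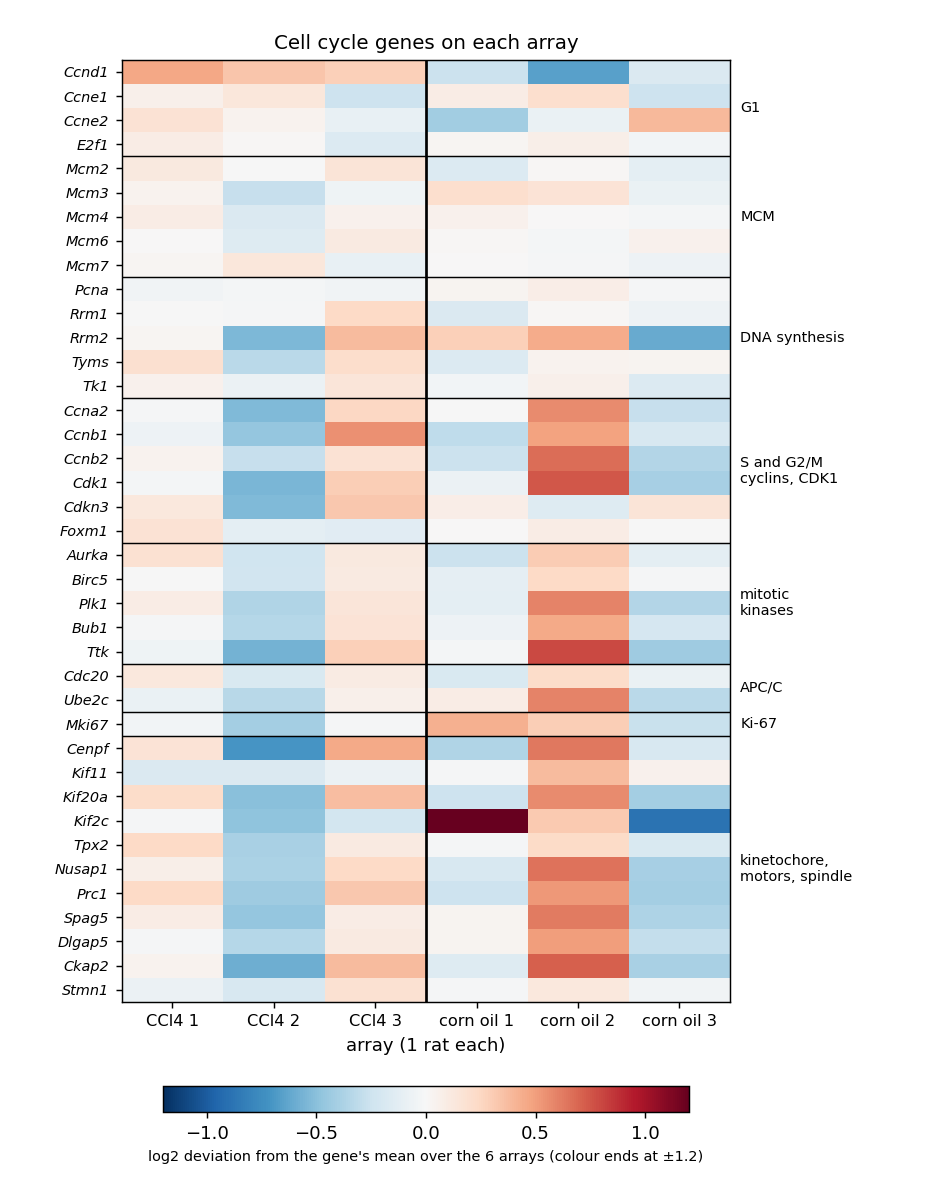
Deviation of each of the 39 tested genes from its own mean over the 6 arrays (log2 units, colour scale ending at 1.2 either way), by role group, carbon tetrachloride (CCl4) left of corn oil. From the cyclins down, most rows are blue on CCl4 replicate 2 and red on corn oil replicate 2, while the MCM rows are pale.

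A separate list of 24 tested G2 and mitosis genes outside the 46 was ordered in a like way. Corn oil replicate 2 was the highest in 15 of them (62.5%), carbon tetrachloride replicate 2 the lowest in 12, and both held in 9 (37.5%). Among 22 tested origin licensing and replication genes, corn oil replicate 2 was the highest in 6 (27.3%). Carbon tetrachloride replicate 2 was the lowest in 11, and both held in 4 (18.2%). The shares over all transcripts were 12.4%, 16.6% and 2.85%. Carbon tetrachloride replicate 2 was thus the lowest in the same share of both lists, so this rank was not particular to G2 and mitosis genes. The 22 genes had a median deviation of -0.06 in that rat. The G2 and M genes had median deviations of 0.04, -0.39 and 0.16 in carbon tetrachloride rats, against -0.06, 0.50 and -0.27 in corn oil rats. The 24 further G2 and mitosis genes had 0.08, -0.23 and 0.09 in carbon tetrachloride rats, against -0.02, 0.34 and -0.12 in corn oil rats.

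Markers of other cells were read beside these values. The 4 tested erythroid markers, of 5 listed, had median deviations of 0.40, -0.60 and 0.15 in carbon tetrachloride rats, against -0.23, 0.26 and 0.05 in corn oil rats. Their summed linear level, relative to the 75th percentile, ranged from 362 to 729 in carbon tetrachloride rats and from 465 to 656 in corn oil rats. Carbon tetrachloride replicate 2 was the lowest rat in this sum too. It was the lowest in 3 of the 4 markers (Hba-a1, Hbb and Alas2), while the other, Slc4a1, was highest in that rat (3.14). The same rat was lowest in the sums of the B and plasma cell markers (1.07) and the distal nephron and collecting duct markers (474). It was not the lowest in the sums of the T cell, macrophage, fibroblast and matrix, or proximal tubule markers. All 11 T cell markers were below 0 in the group comparison, while 52.3% of all transcripts were above 0. In 10 the groups did not overlap, against 5.27% of all transcripts that were lower without overlap. The T cell markers had a median log2 fold change of -0.98. Their summed level was 1.65 to 1.79 in carbon tetrachloride rats and 2.50 to 2.96 in corn oil rats. They had median deviations of -0.54, -0.45 and -0.23 in carbon tetrachloride rats, against 0.52, 0.43 and 0.31 in corn oil rats. Within groups, corn oil replicate 2 exceeded replicate 3 in 8 of 11 (49.6% of all transcripts). Carbon tetrachloride replicate 3 exceeded replicate 2 in 8 of 11 (48.6% of all transcripts). Of the 11, 8 were well above background on all 6 arrays, while on carbon tetrachloride arrays Cd3e was on 2, Cd2 on 1 and Cd5 on 0 of 3. Cd3e, Cd2 and Cd5 were tested only through the corn oil arrays, and they are among the 10 without overlap. The 4 tested B and plasma cell markers, of 7 listed, were all below 0, with a median of -0.43. Their sums were 1.07 to 1.70 in carbon tetrachloride rats and 1.56 to 2.00 in corn oil rats. Of the 4, Tnfrsf17 was well above background on no carbon tetrachloride array and was tested only through the corn oil arrays. The 7 tested macrophage markers, of 8 listed, had a median of -0.01 between the groups, with sums of 75.8 to 86.9 in carbon tetrachloride rats and 75.8 to 106 in corn oil rats. Their median deviations were 0.02, 0.03 and -0.21 in carbon tetrachloride rats, against -0.18, 0.22 and -0.17 in corn oil rats. Corn oil replicate 2 exceeded replicate 3 in 6 of 7, but carbon tetrachloride replicate 3 exceeded replicate 2 in only 2 of 7. The 6 fibroblast and matrix markers had -0.41, 0.03 and 0.06 in carbon tetrachloride rats, against 0.27, 0.28 and -0.13 in corn oil rats. Corn oil replicate 2 exceeded replicate 3 in 6 of 6, and carbon tetrachloride replicate 3 exceeded replicate 2 in 3 of 6. The 6 proximal tubule markers had a median log2 fold change of 0.03, with sums of 970 to 1062 in carbon tetrachloride rats and 922 to 1049 in corn oil rats. The part of these cells in the cell cycle values was not tested.

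**Figure D4:**
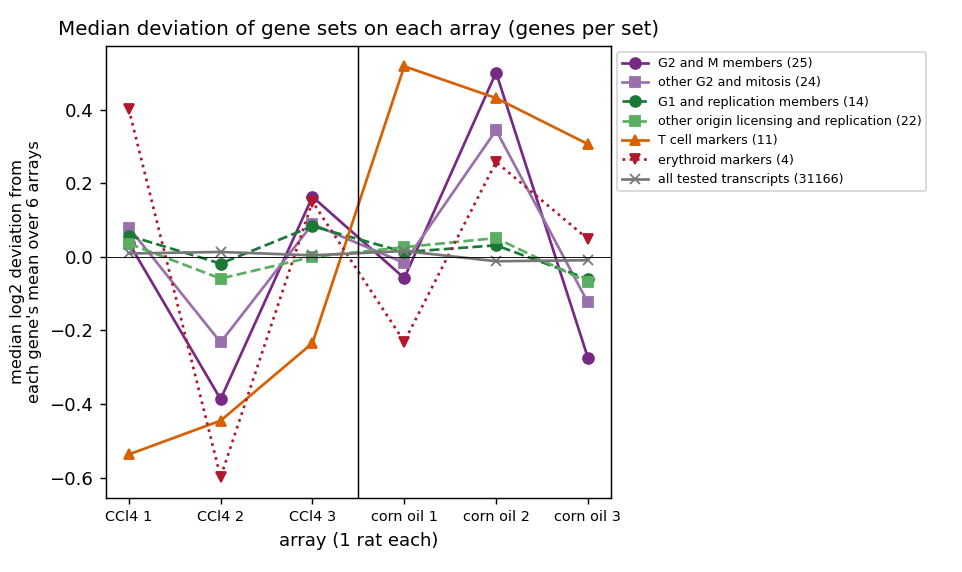
Median log2 deviation from each gene's mean over the 6 arrays, for sets of genes on each array (1 rat each), carbon tetrachloride (CCl4) left of corn oil; the number of genes is in the key (31166 transcripts had a value on all 6 arrays) and lines only join values of a set. The G2 and M genes run from -0.39 on CCl4 replicate 2 to 0.50 on corn oil replicate 2, and the T cell markers lie below 0 on all CCl4 arrays and above 0 on all corn oil arrays.

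Promoter sequence was not used to choose the genes. Genes of G2 and M are known for a CCAAT box, bound by NF-Y, with a cell cycle homology region (CHR), bound by the DREAM and MuvB complexes, and G1 and S genes for E2F sites. The letters searched were CCAAT for the first motif, TTTGAA for the CHR, and TTTCGCGC or TTTGGCGC for E2F, on both strands of 300 bases around the start, 250 before it and 50 from it on, in RefSeq promoters of the build GRCr8. A promoter was listed for 36 of the 46 genes, 25 of G2 and M and 11 of G1 and replication. These 25 are not the same set as the 25 tested G2 and M genes. They include Bub1b, Top2a, Cenpe and Hmmr, which were not tested, and lack Ccna2, Foxm1, Aurkb, Ube2c and Tpx2. Of G1 and replication, Ccnd1, Ccne2, E2f1, Mcm4 and Rrm2 had no promoter listed.

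CCAAT was found in 84.0% of the 25, TTTGAA in 64.0% and both in 60.0%, and an E2F form in 8.0%. Of the 11, CCAAT was found in 63.6%, TTTGAA in 9.1%, both in 0.0% and an E2F form in 54.5%. Over all 27457 promoters of the table the shares were 37.7%, 18.1%, 7.3% and 0.8%. A match describes these letters and is no evidence of binding.

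Of these promoters, 8 are shown over the 150 bases before the start, 5′ to 3′ on the strand of the gene, with matches on either strand in capitals, so that CCAAT on the other strand reads ATTGG. Cdk1, Ccnb2, Cdc20, Prc1 and Birc5 are G2 and M genes, and Mcm6, Mcm7 and Pcna are replication genes, all chosen with their matches known. Among the 6 rats Cdk1, Ccnb2 and Prc1 ranged over 1.29, 1.02 and 0.95 log2 units, Cdc20 and Birc5 over 0.40 and 0.47, and Mcm6, Mcm7 and Pcna over 0.27, 0.22 and 0.12. Cdk1 lies at chr20:19265143-19265292 (plus strand), Ccnb2 at chr8:79981659-79981808 (minus), Cdc20 at chr5:137255800-137255949 (minus), Prc1 at chr1:143659331-143659480 (plus) and Birc5 at chr10:103571996-103572145 (plus). Mcm6 lies at chr13:42404353-42404502 (minus), Mcm7 at chr12:22163179-22163328 (minus) and Pcna at chr3:139955821-139955970 (minus).
Cdk1: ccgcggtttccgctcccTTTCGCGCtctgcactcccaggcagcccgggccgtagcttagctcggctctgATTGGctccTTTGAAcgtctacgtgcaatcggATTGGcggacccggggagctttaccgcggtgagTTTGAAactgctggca
Ccnb2: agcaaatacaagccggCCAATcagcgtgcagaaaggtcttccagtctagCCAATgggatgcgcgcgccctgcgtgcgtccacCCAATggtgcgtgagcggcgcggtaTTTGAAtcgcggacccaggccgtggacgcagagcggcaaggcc
Cdc20: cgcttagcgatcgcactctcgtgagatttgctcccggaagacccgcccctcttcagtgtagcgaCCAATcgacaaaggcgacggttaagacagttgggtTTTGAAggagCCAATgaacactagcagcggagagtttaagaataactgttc
Prc1: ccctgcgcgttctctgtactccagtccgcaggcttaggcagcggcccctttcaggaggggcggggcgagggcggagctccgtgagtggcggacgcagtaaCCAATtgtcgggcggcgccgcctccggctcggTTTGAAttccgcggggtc
Birc5: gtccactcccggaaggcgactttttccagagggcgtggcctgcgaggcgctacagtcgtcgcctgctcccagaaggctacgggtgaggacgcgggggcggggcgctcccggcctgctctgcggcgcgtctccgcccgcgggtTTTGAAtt
Mcm6: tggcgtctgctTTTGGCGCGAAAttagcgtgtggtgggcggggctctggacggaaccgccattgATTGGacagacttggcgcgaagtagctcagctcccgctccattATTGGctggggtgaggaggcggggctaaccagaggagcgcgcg
Mcm7: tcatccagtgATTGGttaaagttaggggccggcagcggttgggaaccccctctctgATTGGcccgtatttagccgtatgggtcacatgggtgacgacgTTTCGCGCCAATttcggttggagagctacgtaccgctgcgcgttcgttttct
Pcna: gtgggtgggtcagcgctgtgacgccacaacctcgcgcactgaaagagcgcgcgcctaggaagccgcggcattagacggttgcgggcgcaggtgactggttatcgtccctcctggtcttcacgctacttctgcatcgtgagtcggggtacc

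The first 4 each hold CCAAT and TTTGAA in the bases shown, and Cdk1 also an E2F form. Birc5 holds TTTGAA in the bases shown, and its CCAAT lies further upstream. In Mcm6 the capitals of TTTGGCGC run into TTTCGCGC read on the other strand, and in Mcm7 TTTCGCGC runs into CCAAT, so these matches overlap. Pcna has no match in the bases shown, and its CCAAT lies further upstream.

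Other genes that act on the cycle were read from lists of 96 genes, of which 72 were tested. Of these, 0 passed an adjusted p of 0.05 by limma, while at an unadjusted p under 0.05 3 were higher and 2 lower after carbon tetrachloride, beside 3.67% and 2.63% of all transcripts. The other D cyclins, Ccnd2 and Ccnd3, had log2 fold changes of -0.13 ± 0.19 and 0.09 ± 0.08, and Cdk4, the kinase that D cyclins activate, had 0.08 ± 0.10. The CDK inhibitors Cdkn1a (p21) and Cdkn1b (p27) had -0.0014 ± 0.070 and -0.04 ± 0.13. The 3 tested probes of Cdkn1a disagreed, between -0.0014 and 0.47, with 2 above 0. Cdkn1c (p57), an inhibitor abundant in podocytes, had 3.51, 3.58 and 2.87 in carbon tetrachloride rats, against 2.76, 2.95 and 2.70 in corn oil rats. The groups overlapped, and the log2 fold change was 0.51 ± 0.20 with all 5 probes above 0 (limma adjusted p = 0.791).

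E2f4, an E2F factor that mostly represses its targets in resting cells, had -0.59, -0.50 and -0.42 in carbon tetrachloride rats, against -0.90, -0.80 and -0.91 in corn oil rats. All carbon tetrachloride rats lay above all corn oil rats, at 0.36 ± 0.07 (limma adjusted p = 0.689). Among replication genes, Prim1, a primase subunit, had 0.43 ± 0.14, Pole, a DNA polymerase, -0.28 ± 0.10, and Orc6, an origin recognition subunit, -0.23 ± 0.09 (limma adjusted p = 0.768, 0.775 and 0.791). Among further G2 and mitosis genes, the spindle motor Kif15 had -4.31, -4.73 and -4.42 in carbon tetrachloride rats, against -3.07, -3.97 and -3.79 in corn oil rats. The groups did not overlap in Kif15, at -0.88 ± 0.26 (limma adjusted p = 0.756), while Nek2, a centrosome kinase, had 0.34 ± 0.17 and Wee1, which restrains CDK1, 0.19 ± 0.12. The 6 tested genes of the quiescence list had a median of -0.02, between -0.07 and 0.12. Of these, Ccng1 had -0.01, while its other tested probe gave 0.72.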

How the data were processed

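Cortex RNA from 6 rats, 3 in each group, was read on 1-colour Agilent arrays. Per the file headers, the authors extracted spot intensity with Agilent Feature Extraction 10.7.1.1 (10.7 per the submitters' processing notes), and the processed signal is background-subtracted linear intensity. The value table the authors deposited is a linear intensity too. A single factor for each array (1015 to 1092) turns the processed signal into it, with medians of 0.111 to 0.118, so scale and direction are known and no gene-wise centring was found. It has 0 columns of other samples.

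The processed signal was put on a log2 scale and the 75th percentile of the array subtracted, without 1439 control spots and outlier-flagged spots. Of 61537 probes, 28206 (45.8%) were matched to a symbol through the accession, using RefSeq genes of GRCr8 for names only. The probe of highest mean signal stood for each gene (or accession with no symbol), and it had to be well above background on every array of a group to be tested. The test was limma (version 3.58.1, under R 4.3.3; two-sided, eBayes after lmFit), with Benjamini-Hochberg adjustment over all transcripts and a threshold of 0.05, and tables were made in Python 3.11.15. The rats are biological replicates according to the design text. The fit was tested on simulated data.

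The genes and lists were chosen with earlier results of these data known. Values on each array are given for genes at an unadjusted p under 0.05 or without overlap, for the 3 brightest of each role group, and for 6 genes named by the rule (Mki67, Top2a, Pcna, Ccnb1, Cdk1, Ccnd1). Of the other lists, up to 3 genes of smallest p are named, and always Cdkn1a, Cdkn1b, Ccnd2, Ccnd3 and Cdk4. Alternatives were normexp (offset 50) with percentile or quantile scaling, median and quantile scaling, the deposited table, other filters on dim probes, the mean of a gene's probes, trend and robust fits, replicate and slide blocks, and leaving out each array.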

Additional observations from a re-analysis of the deposited data

How the results depend on the processing

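In all 19 settings 0 cell cycle genes passed an adjusted p of 0.05, and Ccnd1 stayed above 0. The 1 transcript past the threshold over the whole array became 0 with normexp and either scaling, when dim probes were kept, when signal above background was required on all 6 arrays, with trend and robust fits, with the replicate block, with the slide block and within slide 1, and 0 to 4 when single arrays were left out. Genes lower at an unadjusted p under 0.05, 0 in the report, were 1 with trend and robust fits and 0 to 2 without single arrays. The median log2 fold change ran from -0.16 to 0.073 without single arrays. Of 39 genes, 32 changed sign in at least 1 setting, in 97 values, none of them past the threshold by limma (smallest unadjusted p 0.126), and the cause was not tested. With the mean of a gene's probes these were Mcm4 0.15, Tk1 -0.057, Foxm1 0.067 and Prc1 -0.035. With normexp and the percentile they were Ccne1 0.010, E2f1 0.0060, Ccnb1 -0.0090, Cdkn3 0.057, Aurka -0.0048, Cenpf 0.082, Kif20a -0.013 and Tpx2 0.0026. With normexp and quantiles they were E2f1 0.0081, Ccnb1 -0.018, Cdkn3 0.047, Aurka -0.0010, Cenpf 0.068 and Kif20a -0.0095. With the slide block and within slide 1, which give the same estimate, they were Ccne1 0.082, E2f1 0.035, Tyms -0.033, Ccnb1 -0.26, Aurka -0.0033, Cdc20 -0.016, Kif20a -0.11 and Prc1 -0.051. Without single arrays the genes that changed sign ranged as follows: Aurka -0.073 to 0.21, Birc5 -0.16 to 0.020, Bub1 -0.26 to 0.066, Ccna2 -0.38 to 0.043, Ccnb1 -0.26 to 0.25, Ccnb2 -0.22 to 0.29, Ccne1 -0.16 to 0.082, Ccne2 -0.11 to 0.29, Cdc20 -0.057 to 0.14, Cdk1 -0.43 to 0.14, Cdkn3 -0.23 to 0.19, Cenpf -0.30 to 0.28, Ckap2 -0.33 to 0.22, Dlgap5 -0.35 to 0.047, E2f1 -0.096 to 0.035, Kif20a -0.13 to 0.36, Kif2c -1.04 to 0.046, Mcm4 -0.071 to 0.064, Mcm6 -0.091 to 0.044, Mcm7 -0.0086 to 0.10, Nusap1 -0.25 to 0.27, Plk1 -0.28 to 0.19, Prc1 -0.093 to 0.37, Rrm2 -0.41 to 0.16, Spag5 -0.42 to 0.073, Stmn1 -0.16 to 0.031, Tpx2 -0.15 to 0.17, Ttk -0.49 to 0.11, Tyms -0.033 to 0.23, Ube2c -0.46 to 0.0014. The replicate numbers did not pair the samples, since deviations of same-numbered arrays correlated at -0.023, -0.097 and -0.079. With the replicate block, Ccnd1 had 0.72 (limma adjusted p = 0.831) and the median of the 39 genes was -0.05, and no call on these genes changed.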

Other observations

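A list of 20 growth signal genes holds growth factors, their receptors and downstream genes such as Myc, Fosl2 and Ccn2. Of 17 tested, 0 passed an adjusted p of 0.05 by limma, and at an unadjusted p under 0.05 1 was higher and 2 were lower after carbon tetrachloride, beside 3.67% and 2.63% of all transcripts. Igf1, insulin-like growth factor 1, had 2.17, 2.36 and 2.77 in carbon tetrachloride rats, against 3.35, 3.64 and 2.58 in corn oil rats, a difference of -0.76 ± 0.30 log2 units (SE, 3 rats per group), and all 3 probes were below 0. The groups overlapped, since corn oil replicate 3 lay below carbon tetrachloride replicate 3. Its receptor gene Igf1r had 0.21 ± 0.08 and Hgf, the growth factor that binds MET, -0.30 ± 0.12, both without overlap between the groups. The limma adjusted p was 0.791 for Igf1, 0.788 for Igf1r and 0.791 for Hgf.

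Genes that mark injured or regenerating tubules were read from a list of 11, of which 10 were tested and 0 passed by limma. Vim, vimentin of dedifferentiated tubule cells, had 0.20 ± 0.09 without overlap, Krt18, a keratin, -0.15 ± 0.08, and Havcr1, the kidney injury molecule KIM-1, -0.36 ± 0.27.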
